A study of Mus musculus with 10 samples.

Results

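HOX genes encode homeodomain transcription factors that lie side by side in clusters. Along each cluster, genes with low paralogue numbers act towards the head of the embryo and genes with high numbers towards the tail and the ends of the limbs. Adult fibroblasts and adipocyte precursors keep part of that pattern, so that the set of HOX genes a culture transcribes reflects the place in the body that its cells came from. The HOX genes were taken here as all genes whose symbol is Hoxa, Hoxb, Hoxc or Hoxd followed by a number in any mRNA-seq library. There were 34 such genes among the 18384 genes listed, 10 of them in the Hoxa cluster, 9 in Hoxb, 9 in Hoxc and 6 in Hoxd.

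The libraries came from adipocyte precursors (APs) of C57BL/6J mice, fibroblast-like cells that can become fat cells. They were isolated from subcutaneous white fat (scWAT) by magnetic beads that removed CD45 and CD31 positive cells and then retained SCA-1 positive cells, and were cultured in serum-containing medium. Control cultures received no IL-4, a type 2 cytokine, while treated cultures received it from the day after seeding. mRNA-seq covered 3 control and 3 IL-4 libraries after 4 days, and small RNA sequencing covered 2 control and 2 IL-4 libraries after 2 days. The animals' age, the part of the subcutaneous fat that was dissected and the pooling of animals are not given in the sources used here, and the series calls its libraries biological replicates without saying whether they came from separate animals.

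The HOX clusters also hold miRNA hairpins, which give a separate readout of the same loci and whose products are known to act on HOX mRNAs. The most read mature miRNAs are shown first because they fall into 2 seed families whose members lie in different clusters. Sequences are from RefSeq, and capitals mark the seed, bases 2 to 8 from the 5′ end.
miR-10a-5p: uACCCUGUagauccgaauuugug
miR-10b-5p: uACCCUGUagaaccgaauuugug
miR-196a-5p: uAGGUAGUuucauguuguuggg
miR-196b-5p: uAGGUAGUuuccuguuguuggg
With positions counted from 1 at the 5′ end, miR-10b-5p differs from miR-10a-5p by U12A and miR-196b-5p differs from miR-196a-5p by A12C, so each pair shares its seed.

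The hairpins were placed with the RefSeq annotation of GRCm38, which is the build mm10. The mir-10a hairpin (chr11:96317165-96317274, plus strand) lies within the annotated span of Hoxb3 and 992 bases from Hoxb4. mir-10b (chr2:74726070-74726137, plus strand) lies within Hoxd3 and Hoxd4. mir-196a-1 (chr11:96265164-96265265, plus strand) lies between genes, 6064 bases from Hoxb9. The second hairpin of the same miRNA, mir-196a-2 (chr15:102973350-102973434, plus strand), lies between Hoxc10 and Hoxc9, and mir-196b (chr6:52230081-52230165, minus strand) lies between Hoxa10 and Hoxa9. mir-615 (chr15:103014910-103015001, plus strand) lies within Hoxc5.

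A search of 3′ UTRs gave the places where the miR-196 family could pair with HOX mRNAs. In the window with the most Watson-Crick and G:U pairs to miR-196a-5p, without gaps, the 3′ UTR of Hoxb8 paired at all 22 bases, 21 of them as Watson-Crick pairs and 1 as a G:U pair. This search was added after the data had been seen. Only Hoxb8 and Rps6ka2 reached 22 pairs among the 16528 genes searched, and the median over those genes was 17. For Hoxb8 and for Hoxd8, whose mRNA changed with IL-4, the best window is shown, and for their paralogue Hoxc8 its 3 matches to the seed. These sites differ in kind, and whether miR-196a-5p acts on any of them was not tested. They are given 5′ to 3′ on the mRNA's strand with Watson-Crick pairs to miR-196a-5p in capitals and all other bases in lower case.
Hoxb8, chr11:96284888-96284909, plus strand: CCCAACAACATGAAACTgCCTA
Hoxd8, chr2:74707120-74707141, plus strand: CtCAACAACATaAActTcCtaA
Hoxc8, chr15:102992976-102992997, plus strand: CaCtcacAacTctAACTACCTg
Hoxc8, chr15:102993733-102993754, plus strand: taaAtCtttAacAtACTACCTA
Hoxc8, chr15:102993871-102993892, plus strand: CagcgtAtttTatcACTACCTA
In Hoxb8, 6 of the 7 seed bases were Watson-Crick pairs and the other was the G:U pair, so this site holds no exact match to the seed. The best window of Hoxd8 had 15 Watson-Crick and 3 G:U pairs, 18 in all beside the median of 17. Of its 7 seed bases, 2 were Watson-Crick pairs, and 4 paired when G:U pairs are counted. The best window of Hoxc8, not shown, had 14 Watson-Crick and 3 G:U pairs, with 6 seed bases as Watson-Crick pairs.

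An exact match to the miR-196 seed (ACTACCT, mRNA strand) was present in the 3′ UTRs of 7 of the 33 HOX genes with an annotated 3′ UTR, or 21.2%, and in 5.9% of 16583 listed genes. Hoxa4, Hoxa5, Hoxa9, Hoxb6, Hoxb7 and Hoxc8 were among them. A match to the miR-10 seed (ACAGGGT) was present in 3 HOX genes, Hoxa3 and Hoxb3 among them, or 9.09%, and in 12.2% of the listed genes. The median 3′ UTR had 860 bases in HOX genes and 945 bases in all listed genes. A match describes the sequence and does not show that a miRNA binds there.

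Expected counts per library added up to between 28526782 and 28674604 in control libraries and between 28914003 and 29057787 with IL-4. HOX genes took 0.0372% to 0.0397% of them in control libraries and 0.0311% to 0.036% with IL-4. IL-4 replicate 6 stood apart from the other IL-4 libraries, with a chi-square per degree of freedom of 36.7 and 45.8 against them, where replicates 4 and 5 differed by 2.49 and pairs of controls by 3.77 to 16.8. Fold changes and normalized counts are scaled by edgeR's TMM method, which left a median log2 fold change of 0.003 over all 14009 genes tested. FPKM, the fragments per kilobase and sequencing depth that the authors computed, carry no such scaling: under library totals the median of all genes was -0.17, so FPKM run lower with IL-4 for most genes.

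HOX mRNAs in these cultures were dominated by the central and the 9 to 10 paralogue groups. Of the summed HOX FPKM, groups 4 to 8 held 45.9% to 46.6% in control libraries and 47.4% to 48.8% with IL-4. Groups 9 and 10 held 41.7% to 41.9% and 39.7% to 41.4% in the same order. Groups 1 to 3 held 8.36% to 8.77% and 8.46% to 9.15%. Groups 11 to 13, which pattern the tail end and the distal limb, held 2.9% to 3.5% in control libraries and 2.39% to 2.65% with IL-4. Control and IL-4 libraries thus did not overlap in any of these shares except that of groups 1 to 3. By cluster, Hoxc held 49.5% to 51.5% of the HOX FPKM in the 6 libraries and Hoxa 13.3% to 14.5%, both with overlap between control and IL-4 libraries. Hoxb held 30.8% to 31.3% in control libraries and 28.4% to 29.0% with IL-4. Hoxd had the smallest share, with 4.03% to 5.04% in control libraries and 5.77% to 6.26% with IL-4, so that the shares of Hoxb and Hoxd did not overlap between the conditions. These shares are ratios within a library and do not depend on its scaling. They add up to the whole, so a change in a single abundant gene moves the others. Hoxb9 alone had a mean of 21.8 FPKM in control libraries and 13.7 with IL-4. In normalized counts, 25.3% of all genes tested were lower and 25.2% higher without overlap between the groups. The shares were not tested.

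**Figure D1:**
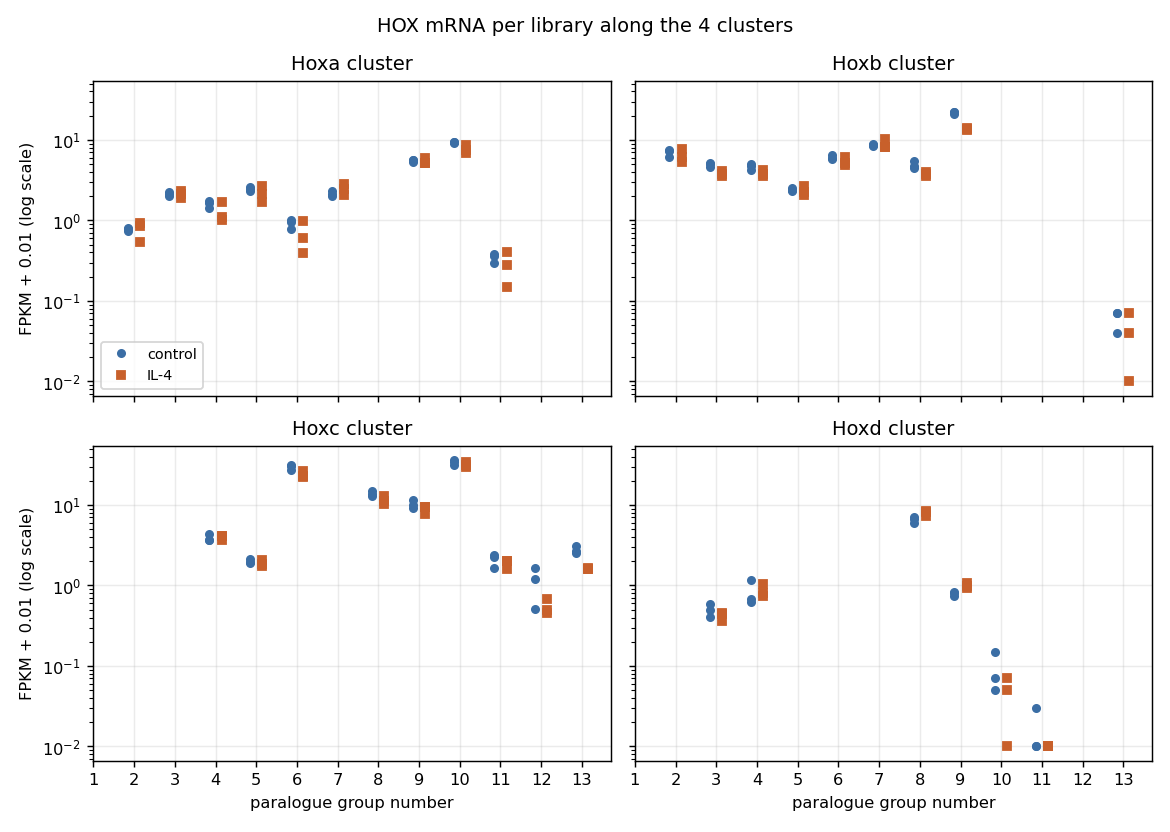
FPKM of 33 of the 34 HOX genes in the 3 control libraries (circles) and the 3 IL-4 libraries (squares), by paralogue group number in the 4 clusters, on a log scale after adding 0.01, so that a gene listed at 0 sits at 0.01. Hoxc10, Hoxc6, Hoxb9 and Hoxc8 lie above 10 FPKM in every library, and Hoxb13, Hoxd10 and Hoxd11 lie at the bottom.

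Only 4 HOX genes had a mean above 10 FPKM over the 6 libraries, 20 were between 1 and 10, and 10 were below 1. Hoxc10 (chr15:102966796-102971898, GRCm38, plus strand) was highest, with FPKM of 35.8, 31.2 and 34.3 in control libraries and 29.9, 31.5 and 33.8 with IL-4. Hoxc6 (chr15:102998226-103011882, plus strand) followed with 30.9, 27.3 and 31.0 in control libraries and 23.2, 22.2 and 26.6 with IL-4. Every Hoxc10 value was above every Hoxc6 value of the same group, with 31.2 against 31.0 at the closest. Hoxb9 came next in the controls, with FPKM of 22.2, 22.0 and 21.3, followed by Hoxc8 with 13.5, 13.1 and 14.7. With IL-4, Hoxb9 was at 13.2, 13.7 and 14.1 and Hoxc8 at 10.3, 11.4 and 12.97, so that Hoxb9 stayed above Hoxc8 but by less.

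In the Hoxa cluster the order was led by Hoxa10, with FPKM of 9.53, 9.18 and 9.54 in control libraries and 7.44, 6.83 and 8.54 with IL-4. Hoxa9 had 5.63, 5.29 and 5.58 in control libraries and 5.21, 5.12 and 5.9 with IL-4. Hoxa5, a gene that patterns the neck and chest, had 2.61, 2.28 and 2.43 in control libraries and 1.7, 2.15 and 2.7 with IL-4. Below Hoxb9 in its cluster came Hoxb7 with 8.49, 8.58 and 8.89 FPKM in control libraries and 8.27, 8.19 and 10.2 with IL-4. Hoxb2, a gene of the hindbrain and its neural crest in the embryo, had 7.35, 6.19 and 7.43 in control libraries and 5.27, 6.16 and 7.8 with IL-4. Among Hoxd genes, Hoxd8 was the only one above 1.2 FPKM in any library.

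Near the limit of detection were Hoxb13, Hoxd10 and Hoxd11, which did not pass the filter on low counts. Hoxb13 had 1, 2 and 2 expected counts in control libraries and 0, 2 and 1 with IL-4, and Hoxd11 had 0, 2 and 0 in control libraries and none with IL-4. Hoxd10 reached 2, 3 and 7 counts in control libraries and 2, 3 and 0 with IL-4. No difference was detectable at this depth for any of them. A further 5 HOX genes of the RefSeq annotation, Hoxa13, Hoxb1, Hoxd1, Hoxd12 and Hoxd13, were not listed in any library, and a gene without a row was taken as 0.

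Of the 31 HOX genes tested for a difference after 4 days of IL-4, 2 were lower, Hoxb9 and Hoxc13, and 2 were higher, Hoxd8 and Hoxd9, at an adjusted p under 0.05 in the edgeR quasi-likelihood test after Benjamini-Hochberg adjustment. That is 6.45% in each direction, beside 18.4% of all genes tested that were lower and 19% that were higher. In either direction it is 12.9% of the HOX genes beside 37.4% of all genes, and among genes with a mean of at least 100 normalized counts it is 3 of 21 HOX genes beside 37.5% of all. Without a threshold, 16 of the 31 HOX genes had a log2 fold change below 0, beside 49.7% of all genes. No HOX gene passed the study's threshold of a log2 fold change beyond 1, which 5.26% of all genes did downwards and 5.77% upwards. Neither did any with an unadjusted p under 0.05 or in DESeq2. Before adjustment, 6 HOX genes had a p under 0.05 in edgeR, beside 6411 or 45.8% of all genes tested, and DESeq2 gave 5. In bulk RNA, fewer cells of one type and less RNA per cell cannot be told apart.

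Hoxb9 patterns the chest and trunk and lies at chr11:96271330-96276595, on the plus strand. Its normalized counts were 1598, 1594 and 1513 in control libraries and 1079.5, 1122 and 1123 with IL-4, so that the groups were far apart. The mean fell from 1568 ± 47.8 to 1108 ± 24.9 (SD, n = 3 per group), or -0.50 on the log2 scale (standard error, SE, 0.06, adjusted p = 0.000289 in the edgeR quasi-likelihood test after Benjamini-Hochberg adjustment). This left Hoxb9 at 70.7% of its control level (95% interval 64.4% to 77.5%). Hoxb9 was lower at an adjusted p under 0.05 in all 12 alternative settings, with a log2 fold change between -0.67 and -0.47.

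Hoxc13, at the far end of its cluster (chr15:102921131-102928814, plus strand), is known from hair follicles, nails and the tail. It had 199, 162 and 172 normalized counts in control libraries and 117, 118.5 and 114 with IL-4, and the groups did not overlap. From 178 ± 18.9 in the controls it fell to 116 ± 2.49 with IL-4 (SD, n = 3 per group). The log2 fold change was -0.61 (SE 0.11, adjusted p = 0.00389 in the edgeR quasi-likelihood test after Benjamini-Hochberg adjustment), which is 65.5% of control (95% interval 54.5% to 78.7%). All 12 alternatives called Hoxc13 lower, with log2 fold changes of -0.78 to -0.52. At 1.59 to 3.09 FPKM, Hoxc13 was a minor HOX mRNA in all libraries.

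Hoxd8 and Hoxd9 are neighbours in the middle of the Hoxd cluster and act in the trunk and, for Hoxd9, in the limb. Hoxd8 (chr2:74704615-74707933, plus strand) had 352, 361 and 313 normalized counts in control libraries and 449, 499.6 and 480.1 with IL-4. Every IL-4 library was above every control library. Its mean rose from 342 ± 25.2 to 476 ± 25.3 (SD, n = 3 per group), a log2 fold change of 0.48 (SE 0.09, adjusted p = 0.00322 in the edgeR quasi-likelihood test after Benjamini-Hochberg adjustment), or 139% of control (95% interval 121% to 160.1%). All 12 alternatives called it higher, with log2 fold changes of 0.24 to 0.53. The annotated exons of Hoxd8 share 85 bases with a gene on the opposite strand, Gm38462, which was not listed in any library.

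Hoxd9 (chr2:74697763-74700208, plus strand) was much scarcer, with 42, 46 and 48 expected counts in control libraries and 57, 55 and 62 with IL-4. The groups did not overlap on this scale or after normalization, where the mean was 43.0 ± 2.73 in control libraries and 61.2 ± 2.66 with IL-4 (SD, n = 3 per group). Its log2 fold change was 0.51 (SE 0.15, adjusted p = 0.0267 in the edgeR quasi-likelihood test after Benjamini-Hochberg adjustment). The call was lost when any of the 6 libraries was left out (adjusted p between 0.0561 and 0.0994 in edgeR's quasi-likelihood test), with DESeq2 (adjusted p = 0.0907), with library totals (adjusted p = 0.101) and with limma on log2(FPKM + 0.1) (adjusted p = 0.0568).

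**Figure D2:**
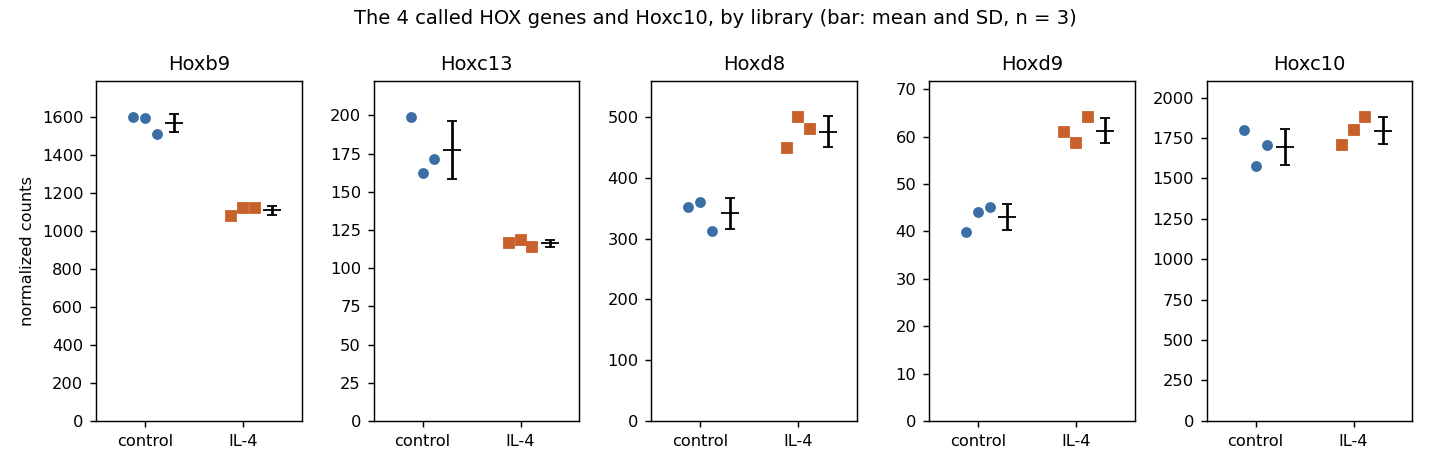
Normalized counts of Hoxb9, Hoxc13, Hoxd8, Hoxd9 and Hoxc10 in each control library (circles) and each IL-4 library (squares), with the mean and SD (n = 3) beside them and each axis starting at 0. The groups are separate for the first 4 genes and overlap for Hoxc10, the most abundant HOX mRNA.

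Within paralogue groups, whose members encode the most similar proteins, the shares of FPKM can be compared between libraries. These shares do not depend on the scaling of a library and are given as a description, without a test. They add up to the whole of a group, so a change in a single member moves the shares of the others. In group 9, Hoxb9 held 57.5%, 59.0% and 54.3% of the FPKM in control libraries and 48.5%, 46.9% and 46.2% with IL-4. Hoxa9 held 14.2% to 14.6% in control libraries and 17.5% to 19.3% with IL-4, and Hoxd9 1.86% to 2.12% and 3.18% to 3.57%. Hoxc9 overlapped between the groups, at 24.7% to 29.3% and 28.7% to 32.4%. Hoxb9 was thus the leading member of its group in every library, with a smaller part of it after IL-4.

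In group 8, the share of Hoxd8 was 26.9%, 28.5% and 22.8% in control libraries and 34.5%, 35.1% and 33.0% with IL-4. The other members held less of the group with IL-4. Hoxc8 went from between 53.2% and 56.4% to between 48.5% and 51.4%, and Hoxb8 from between 18.3% and 20.8% to between 15.6% and 17.0%. In group 13, Hoxc13 held at least 96.4% in every library, since Hoxb13 was the only other member listed. In group 10, Hoxc10 held 77.2% to 78.9% in control libraries and 79.8% to 82.1% with IL-4, the rest being almost all Hoxa10.

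The other 27 HOX genes tested were not called, with adjusted p between 0.071 and 0.987 in the edgeR quasi-likelihood test after Benjamini-Hochberg adjustment. Their log2 fold changes ran from -0.86 for Hoxc12 to 0.36 for Hoxa7. Hoxc10 was at 1693 ± 109 normalized counts in control libraries and 1796 ± 84.4 with IL-4 (SD, n = 3 per group), with overlapping groups. The log2 difference was 0.08 (95% interval -0.08 to 0.25). For Hoxc6 the difference was -0.13 (-0.32 to 0.05) and for Hoxc8 -0.08 (-0.29 to 0.12), again on the log2 scale. Hoxa10 and Hoxc6 were called lower without IL-4 replicate 6, at adjusted p of 0.042 and 0.0399 in edgeR's quasi-likelihood test.

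For 20 of the 31 HOX genes, or 17 of the 21 with a mean of at least 100 normalized counts, the 95% interval of the fold change lay within 1.5-fold in both directions. The same was true of 58.9% of all genes tested, and of 70.1% of those with at least 100 counts. This rule was chosen after the values had been seen. The median size of the log2 fold change was 0.16 over the HOX genes and 0.22 over all genes, or 0.14 and 0.19 with at least 100 counts. Hoxc12 had the widest interval, -1.89 to 0.17 on the log2 scale, with 26, 36 and 11 expected counts in control libraries and 10, 15 and 11 with IL-4. Its groups overlapped through control replicate 3 alone, and without that library it was called lower and past the study's fold threshold (adjusted p = 0.0238 in edgeR's quasi-likelihood test).

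Groups did not overlap in normalized counts for 3 HOX genes that were lower with IL-4 and 5 that were higher, beside 25.3% and 25.2% of all genes tested. Apart from the called genes these were Hoxb8, Hoxa7, Hoxa9 and Hoxb7, which are named here after their values were seen. Hoxb8, the gene with the near-complete miR-196 site, had 336, 318 and 376 normalized counts in control libraries and 287, 297 and 306 with IL-4. That is a log2 fold change of -0.21 (95% interval -0.42 to -0.0003, adjusted p = 0.109 in the edgeR quasi-likelihood test after Benjamini-Hochberg adjustment). Hoxa7 had 103, 110.3 and 117 normalized counts in control libraries and 121, 143 and 159 with IL-4, a log2 fold change of 0.36 (adjusted p = 0.071 in the same edgeR test). Without IL-4 replicate 4, Hoxa7 was called higher (adjusted p = 0.0325 in edgeR's quasi-likelihood test). For Hoxb7 and Hoxa9 the log2 fold changes were 0.21 and 0.16.

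**Figure D3:**
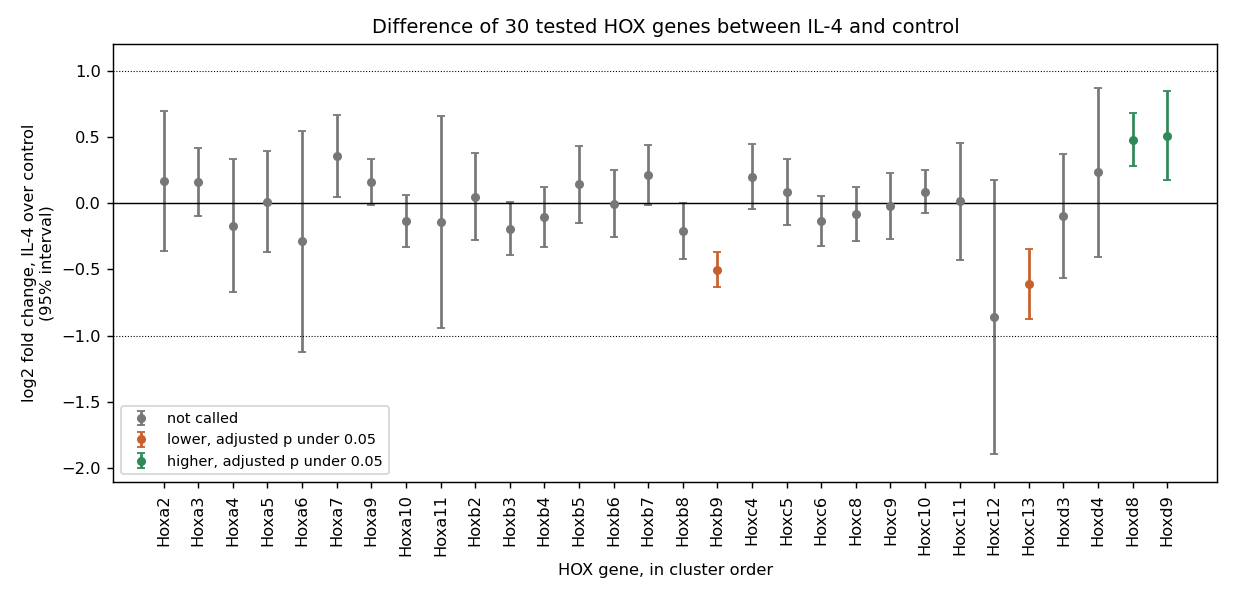
Log2 fold change of 30 of the 31 HOX genes tested, IL-4 over control, with 95% intervals from edgeR's quasi-likelihood fit, in cluster order. Hoxb9 and Hoxc13 are lower, Hoxd8 and Hoxd9 higher, and most of the other intervals include 0; dotted lines mark a log2 fold change of 1 in either direction.

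By cluster, the median log2 fold change was -0.06 for the 10 Hoxa genes tested, -0.05 for the 8 Hoxb genes, -0.02 for the 9 Hoxc genes and 0.36 for the 4 Hoxd genes, beside 0.003 for all genes. In the Hoxa cluster no gene was called by edgeR or DESeq2 with all 6 libraries, and 1, Hoxa7, had an unadjusted p under 0.05 in edgeR. The Hoxd genes that were not called were Hoxd3 and Hoxd4, which overlap each other in the annotation. Hoxd4 had 48, 82 and 44 expected counts in control libraries and 75, 52 and 57 with IL-4, and its interval reached from -0.40 to 0.87 on the log2 scale. The 4 genes tested in groups 11 to 13 had a median of -0.38, where Hoxc13 was the called gene.

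Expected counts of Hoxa3 and Hoxa11 were not whole numbers, both overlap genes of the opposite strand, and the strand of the reads is not stated. Hoxa3 and Hoxaas2 together had 172, 154 and 162 expected counts in control libraries and 161, 139 and 171 with IL-4. These sums are whole numbers although each gene's own expected counts are not, and the same held for Hoxa11 with Hoxa11os. All other HOX genes had whole counts in all 6 libraries. In all, annotated exons of 7 HOX genes share bases with a gene on the opposite strand.

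The small RNA libraries of day 2 gave a second readout of the clusters, with 23790821 and 32004058 reads over mature miRNAs in control libraries and 27971661 and 32061504 with IL-4. miR-10a-5p was among the most read miRNAs of the culture. It took 20.7% and 12.7% of the reads in control libraries and 19.8% and 11.5% with IL-4, which gave it rank 1 or 3 in each library. In this share the libraries within each group differed more than the groups did. miR-10b-5p, of the same seed, took 0.697% and 0.512% in control libraries and 0.582% and 0.386% with IL-4.

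The miR-196 family was read less. miR-196a-5p had 61794 and 73450 reads in control libraries and 61824 and 74263 with IL-4, and miR-196b-5p had 42306 and 44930 in control libraries and 43469 and 43298 with IL-4. Their log2 fold changes were -0.22 (95% interval -0.68 to 0.24) and -0.23 (-0.78 to 0.32) in edgeR's quasi-likelihood fit. The mature sequence of miR-196a-5p is the same from its hairpins in the Hoxb and Hoxc clusters. A read of that sequence alone therefore does not name its hairpin. The authors' counts still differ by hairpin, and the values above are those of mir-196a-2, the larger. For mir-196a-1 they were 44977 and 56464 in control libraries and 44908 and 57784 with IL-4. miR-615-3p, from within Hoxc5, had 2840 and 4245 reads in control libraries and 3071 and 5648 with IL-4.

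All 11 mature miRNAs of the 6 hairpins were tested among 640 miRNAs. By the study's rule, a fold of over 1.5 either way with p below 0.05 before adjustment, 1 was called, miR-196b-3p, beside 6.09% of all miRNAs tested. miR-196b-3p is the less read strand of its hairpin and had 76 and 79 reads in control libraries and 186 and 162 with IL-4. Each IL-4 library was above both controls. It was 1.94-fold higher (95% interval 1.16 to 3.23), with an unadjusted p of 0.0184 and an adjusted p of 0.59 in the edgeR quasi-likelihood test. The p was 0.0543 without control replicate 2 and 0.127 without IL-4 replicate 1. At an adjusted p under 0.05, edgeR and DESeq2 called none of the 11, and 1 had an unadjusted p under 0.05 in each. With the replicate number as a block, edgeR called 1 of the 11, miR-196b-3p (adjusted p = 0.000992), although nothing in the labels ties libraries of the same number. That fit leaves hardly any freedom to estimate a miRNA's own spread, so its p rests almost wholly on a spread shared over all miRNAs.

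Among the less read strands of the other hairpins, only miR-10b-3p was below miR-196b-3p in every library. miR-10a-3p had between 1369 and 2215 reads per library, miR-196a-2-3p between 1051 and 1516, and miR-615-5p and miR-196a-1-3p between 135 and 235. miR-10b-3p had 16 and 36 reads in control libraries and 13 and 22 with IL-4. None of these was called, and the size of difference that 2 libraries a group can show is limited by a biological coefficient of variation of 0.227, beside 0.0939 in mRNA-seq.

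**Figure D4:**
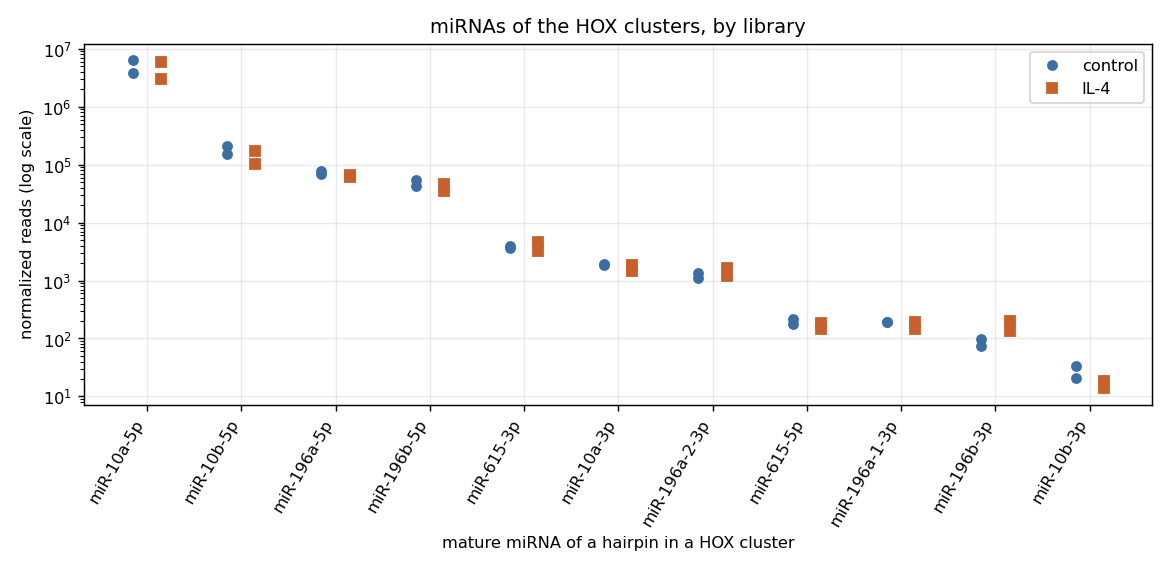
Normalized reads of the 11 mature miRNAs from hairpins in the HOX clusters in 2 control libraries (circles) and 2 IL-4 libraries (squares) of day 2, on a log scale. miR-10a-5p lies above all the others in all libraries, and miR-196b-3p is the only one called.

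HOX mRNAs were also compared by the seed matches in their 3′ UTRs. The 7 HOX genes tested that hold a miR-196 match had a median log2 fold change of -0.003, and the 23 without one had -0.02. For miR-10 matches the medians were -0.19 for 3 genes and -0.003 for 27. These are descriptions of small groups, and the days of the mRNA and small RNA libraries differ.

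HOX proteins bind DNA together with cofactors of the TALE homeodomain class, made by the Pbx, Meis and Pknox genes. Of 9 such genes, 3 were lower with IL-4 and 1 was higher, beside the 18.4% and 19% of all genes, with a median log2 fold change of -0.005. The order by FPKM in this and the following lists is that of the mean over the 6 libraries. Pbx2 had a log2 fold change of -0.07 and was not called. Calls named after their values were seen were Pbx3 at -0.39, Pknox2 at -0.64 and Pknox1 at 0.44 on the log2 scale. Pknox2 was called in all 12 alternatives, Pbx3 in all but those without control replicate 2 or IL-4 replicate 5, and Pknox1 in 5 of 12. None of the Meis genes was called, with 0 also at an unadjusted p under 0.05 in edgeR and none in DESeq2.

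Polycomb proteins keep HOX genes silent outside their domains by marking histone H3 at lysine 27, and trithorax proteins and demethylases of that mark oppose them. Of 17 Polycomb genes, 3 were lower and 3 were higher, or 6 in either direction beside 37.4% of all genes, with a median log2 fold change of -0.06. Phc2 had the highest FPKM, with a mean of 35.8 FPKM in the controls, and was not called. Cbx6, the next, was lower with a log2 fold change of -0.25 (adjusted p = 0.00533 in the edgeR quasi-likelihood test after Benjamini-Hochberg adjustment). Further calls are named after their values were seen. Ezh2, the methyltransferase of that mark, was also lower at -0.45, from 853 ± 42.7 to 624 ± 15.5 normalized counts (SD, n = 3 per group), and Phc1 was lower at -0.23. Cbx7 and Jarid2 were among the higher ones, at 0.44 and 0.31 on the log2 scale. Over 13 settings, the main fit included, Cbx7 was called higher in 5 and Jarid2 in 6, while Phc1 was called lower in 10. Over the alternatives the number of Polycomb genes called lower ran from 2 to 9, and the number called higher from 1 to 5. None of 8 trithorax and demethylase genes was called by edgeR or DESeq2, with 0 at an unadjusted p under 0.05 in either. Library totals and limma on log2 FPKM with either pseudocount each called 3 of them lower, settings that lower the median of all genes. Men1 and Ash2l, the highest of these by FPKM, had log2 fold changes of 0.02 and -0.02.

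Retinoic acid, Cdx factors and Gdf11 set HOX domains in the embryo. Of 7 such inducers and receptors 5 were listed and 4 tested, while Cdx2 and Cdx4 were not listed and Cdx1 did not pass the filter. Rarb, a retinoic acid receptor and itself a known retinoic acid target, rose from 91.9 ± 13.97 to 916 ± 40.9 normalized counts (SD, n = 3 per group; log2 fold change 3.32, adjusted p = 4.36e-07 in the edgeR quasi-likelihood test after Benjamini-Hochberg adjustment). Rarg, the receptor with the highest FPKM, had a log2 fold change of 0.17 and was not called, while Rara was lower at -0.44 (adjusted p = 0.00154 in the same edgeR test). Several HOX genes of groups 1 to 3 are known retinoic acid targets in the embryo. The 6 genes of these groups had a median log2 fold change of -0.02. None of the 6 was called by edgeR or DESeq2, beside 37.4% of all genes called in either direction in edgeR. At an unadjusted p under 0.05 in edgeR there were 0 of the 6, beside 45.8% of all genes. The scarcest had wide intervals, -0.36 to 0.69 for Hoxa2 and -0.57 to 0.37 for Hoxd3 on the log2 scale. Whether retinoic acid acted on HOX genes in these cultures was not tested.

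Noncoding RNAs of the HOX clusters were scarce. Of 14 looked for, 11 were listed and 6 were tested, with 1 lower and none higher, beside 18.4% and 19% of all genes. Mira, the highest by FPKM over the 6 libraries, had a log2 fold change of 0.34 and was not called. Gm53, the next and above Mira in the mean of the controls, fell from 69.3 ± 6.06 to 44.1 ± 6.54 normalized counts (SD, n = 3 per group; log2 fold change -0.65, adjusted p = 0.0171 in the edgeR quasi-likelihood test after Benjamini-Hochberg adjustment), and the call was lost without control replicate 1 or 2.

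Other transcription factor genes that mark position in mesenchyme were examined beside the HOX genes. Of 17 tested among 19, 9 were higher and 2 lower, En1 and Shox2, beside 19% and 18.4% of all genes, with a median log2 fold change of 0.27. Nr2f2, a nuclear receptor gene, rose from 1304 ± 46.4 to 4250 ± 118 normalized counts (SD, n = 3 per group; log2 fold change 1.70, adjusted p = 4.39e-07 in the edgeR quasi-likelihood test after Benjamini-Hochberg adjustment). Wt1, a gene of the mesothelium and visceral fat, rose from 19.9 ± 8.02 to 94.1 ± 14.9 (log2 fold change 2.23). Prrx1, the highest of these by FPKM, had a log2 fold change of 0.19 and was not called, and Shox2, the next, was lower at -0.43. Whether the counts of these genes and of HOX genes differ beyond chance was not tested.

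Markers of other cell types moved in the same libraries, in which 18.4% of all genes tested were lower with IL-4 and 19% higher. The 12 AP markers were all detected, with summed FPKM of 4552 to 4882 in control libraries and 5040 to 5369 with IL-4. Of these genes, 6 were higher and 2, Lum and Pdgfrb, lower, with the largest log2 fold changes for Pi16 at 4.02, Cd34 at 3.35 and Ly6a (SCA-1) at 1.196, and the highest FPKM, in the mean over the 6 libraries, for Col1a1 and Thy1. Most of the sum was Col1a1, with a mean of 3307 FPKM in control libraries and 3690 with IL-4. The 12 macrophage markers were also present, although CD45 positive cells had been removed, and their summed FPKM were 3093 to 3959 in control libraries and 1213 to 1550.2 with IL-4. Of them, 10 were lower and 1, Mrc1, higher, led by Cx3cr1 at -8.65, Aif1 at -4.43 and Fcgr1 at -2.91 on the log2 scale, and Lyz2 and Cd68 had the highest FPKM. Lyz2 made up most of the macrophage sum in the controls, with a mean of 2739 FPKM there and 776 with IL-4. Endothelial markers summed to 12.7 to 13.3 and 14.1 to 16.2 FPKM, with Cdh5 and Emcn lower and Tek and Vwf higher, and lymphocyte markers to 0.97 to 1.25 and 0.3 to 0.43, with Cd4 lower and Cd3e and Cd3d not listed. What part these cells have in the HOX differences was not tested.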

How the data were processed

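Libraries were grouped by their GEO labels; the day of harvest follows the study's methods. For mRNA-seq, the authors filtered reads with SOAPnuke, mapped them to mm10 with HISAT and used Bowtie2 with RSEM for gene levels; versions are not given in the sources used here. They deposited an expected count and an FPKM per gene and library. For small RNA, the authors deposited raw read counts per precursor and arm, made with miRDeep2 and miRBase v21. The column of authors' total counts per precursor was not used.

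Expected counts were rounded. 1 row naming no gene (at most 0.000225% of the counts of a library) was left out, and genes with no row were taken as 0. Genes were filtered with filterByExpr (minimum count 10, minimum total 15), scaled with TMM and compared with the quasi-likelihood test of edgeR 4.0.16 in R 4.3.3, adjusted over all tested genes by Benjamini-Hochberg. Standard errors are the log2 fold change divided by the root of F, and normalized counts are counts over scaled library size times the mean scaled library size. miRNAs were tested likewise, taking the largest count over precursors. Alternatives were DESeq2 1.42.0, upper-quartile scaling, library totals, no filter, limma 3.58.1 on log2 FPKM with a pseudocount of 1 or 0.1, sums over precursors, a replicate block for miRNAs, and each library left out. The tests were tried on simulated data in which 200 genes or miRNAs were given a change. At an adjusted p under 0.05 in edgeR's quasi-likelihood test, 48.8% of mRNA changes of 0.5 on the log2 scale were recovered, and 89.9% of 1. For miRNAs the values were 7.8% and 32.5%, so changes of these sizes can be missed.

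3′ UTRs are the longest RefSeq 3′ UTR of each gene on GRCm38, with seed matches on the mRNA strand. Named were HOX genes called at an adjusted p under 0.05, the 3 highest in mean FPKM of each cluster, genes at 3 or fewer counts, ends of ranges, all HOX cluster miRNAs, and of each other list up to 3 genes called beyond a log2 fold change of 1 and the 2 highest in FPKM; others are said to be named after their values were seen. The HOX genes and all lists were chosen with earlier results of these data known. Counts and depth limit precision, and intervals cover the spread between these libraries only. Some genes of these lists are not reported here. Figures used Python 3.11.15 and matplotlib 3.10.9.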

Additional observations from a re-analysis of the deposited data

How the results depend on the processing

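Across 12 alternatives, Hoxb9 and Hoxc13 stayed lower and Hoxd8 higher at an adjusted p under 0.05, while Hoxd9 kept its call in 3 (upper-quartile scaling, no filter and limma on log2(FPKM + 1)). The number of HOX genes called higher was 1 in place of 2 with DESeq2, with library totals and with limma on log2(FPKM + 0.1), and between 1 and 2 when libraries were left out. The number called lower was 6 with library totals, 7 with limma on log2(FPKM + 1), 6 with limma on log2(FPKM + 0.1), and between 2 and 4 when libraries were left out, with 4 without IL-4 replicate 6. Library totals and FPKM leave the median of all genes at -0.17 and between -0.169 and -0.133 on the log2 scale, and of all calls 74.4% and 74.3% were then lower, beside 49.2% with TMM. HOX genes past the fold threshold numbered 0 to 1 when libraries were left out.

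Log2 fold changes turned sign under at least 1 alternative for 14 of the 31 HOX genes tested, none of them called under any setting. Among the HOX genes named by rule and the miRNAs these were Hoxa5 (-0.0075 with upper-quartile scaling, -0.16 with library totals, -0.12 and -0.175 with limma at pseudocounts of 1 and 0.1), Hoxa9 (-0.0108, -0.0218 and -0.0257), Hoxb2 (-0.12, -0.12 and -0.14) and Hoxc10 (-0.0873, -0.0859 and -0.0883), the last 3 genes under library totals and limma at 1 and 0.1 in that order, and miR-615-3p (-0.0862 with upper-quartile scaling). With libraries left out, the range was -0.15 to 0.17 for Hoxa5, -0.10 to 0.17 for Hoxb2, -0.75 to 0.24 for miR-10a-5p, -0.42 to 0.0138 for miR-196a-1-3p, -0.0591 to 0.39 for miR-196a-2-3p and -0.24 to 0.27 for miR-615-3p.

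The small RNA groups share the numbers 1 and 2, but the labels do not say that a number marks a shared culture or day, and the deviations of same-numbered libraries correlated at 0.455. Deviations within a group of 2 libraries mirror each other, so both pairs give the same value, and the opposite pairing would turn its sign. With the replicate block, miR-196b-3p, at a log2 fold change of 0.94, was called by the study's rule, as without it, and also at an adjusted p of 0.000992 in edgeR, where every other setting called 0 HOX cluster miRNAs after adjustment. miR-10b-5p was at -0.44 with the block (unadjusted p of 0.00438, edgeR). Without the block it was at -0.41 (unadjusted p of 0.222 in edgeR's quasi-likelihood test). With single libraries left out, miR-10b-5p ran from -0.86 to -0.09, with -0.61 without control replicate 2. That range spans the study's fold threshold for miRNAs, and each of these fits leaves 1 library in a group. mRNA libraries of the groups carry different numbers, and the labels do not say whether any control and IL-4 libraries belong together. No paired fit was made for them. Control replicate 3 and IL-4 replicate 6 differed most from the other libraries of their groups, and whether these share a batch was not tested. Replicates of 2 and 3 libraries and the low counts of Hoxc12, Hoxd9 and miR-196b-3p limit what can be told.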
